A study of Mus musculus with 7 samples.

Results

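The primary cilium and cystic kidney genes described here are the 40 rows, of 16167 in the deposited expression table, whose gene symbol belongs to the intraflagellar transport (Ift), Bardet-Biedl (Bbs), nephronophthisis (Nphp, Invs), Meckel and Joubert transition zone (Tctn, Tmem67, Tmem216, Tmem231, B9d, Mks1, Cep290, Rpgrip1l) or polycystic kidney (Pkd, Pkhd1) families. They were chosen by symbol and not by any measured value. RNA of whole mouse kidneys at stage E15.5 was sequenced in 7 libraries, 3 from controls titled Irx3/5(loxP/+) and 4 from mutants titled Six2-Cre; Irx3/5(loxP/loxP). Both groups therefore carry floxed alleles of the Iroquois homeobox genes Irx3 and Irx5, on 1 chromosome in the controls and on both in mutant kidneys. Only the mutant titles name a Cre, and the genotype field calls the controls WT. Cre under Six2 control acts in nephron progenitors and their descendants, so the ureteric tree, stroma, vessels and blood of a mutant kidney keep the genes. Effects of the transgene and of the deletion cannot be told apart, and the number of embryos behind each library is not given in the sources used here, so p-values measure the spread between libraries.

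The primary cilium is a single antenna-like projection on most kidney epithelial cells. Intraflagellar transport (IFT) trains carry cargo along it, outward by the IFT-B complex with kinesin and back by IFT-A with dynein, and the BBSome, a coat of BBS proteins, moves membrane proteins out of it. The transition zone at its base acts as a gate, and the polycystins sit in its membrane. Inherited loss of many of these genes gives cystic kidneys or nephronophthisis, which is why the family is studied together in the kidney.

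The libraries held from 40511920 to 69028943 reads assigned to genes. Irx3, a targeted gene, stood at 14.7, 14.2 and 12.7 FPKM (fragments scaled to gene length and library depth) in control replicates 1 to 3 and at 6.63, 3.98, 5.57 and 6.75 in mutant replicates 1 to 4, apart from the controls in every library. Irx5 was at 1.36 to 1.59 among controls, against 0.895 to 2.05 among mutants. Mutant replicates 1 and 4, at 2.05 and 2.03, lay above every control and the other 2 lay below. Which parts of the genes are removed is not given in the sources used here. All 8 nephron progenitor, 8 podocyte, 12 proximal tubule and 10 ureteric markers examined were present in every library. The podocyte markers, 4 of them lower by limma, summed to 187.2 to 204.6 FPKM among controls and to 120.8 to 141.7 among mutants, and all 8 lay apart. The progenitor markers, 3 lower and 1 higher, summed to 170.9 to 187.9 and to 136.1 to 154.1. Over all 13466 tested genes limma called 1.53% in either direction, and 8.61% lay apart with the mutants lower. Skeletal muscle markers summed to 56.1 FPKM in control replicate 1 and to 7.30 to 9.69 in the other libraries. All values below are FPKM, and a log2 fold change is the mutant mean minus the control mean of log2(FPKM + 1), so the change of a scarce gene is understated.

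Promoter sequences are shown first because many ciliary genes share a binding site of the RFX transcription factors, the X-box. RefSeq windows on GRCm38.p6, from 250 bases before to 50 after the transcription start, were matched by symbol for 34 of the 40 genes. The X-box core GTTGCC (or its reverse complement GGCAAC) occurred in 16 of the 34, or 47.1%, against 14.1% of all genes with a window and 14.7% of the genes tested here. The fuller form, GTTGCC followed after 2 bases by GGNAAC and read on both strands, contains the core and occurred in 3 of them (Bbs7, Mks1 and Tctn1), or 8.82%, against 0.355% of all genes and 0.407% of the tested genes. GTTGCCA occurred in 8, or 23.5%, against 5.02% of all genes, and a stricter spelling of the fuller form, with AT as its middle bases, in 0 against 0.0851%. These 4 spellings overlap and were chosen after looking, so these shares are descriptions, and a match shows no binding. Many of the matches do not lie wholly before the start. In Tctn1 (fuller form) and in Ift88, Ift172, Nphp4, Bbs1 and Tctn2 (core) each match reached or lay past it. Besides these only Bbs7, Mks1 and Ift140 were searched, and matches before the start were found in these 3. Those of Bbs7 and Mks1 are of the fuller form, and that of Ift140 is the core alone. All 3 are printed below 5′ to 3′ on the strand of the gene, with the searched letters in capitals. They lie at chr3:36613479-36613528 (minus strand) for Bbs7, chr11:87853173-87853214 (plus) for Mks1 and chr17:25015959-25016000 (plus) for Ift140, and the matches within them end 107, 10 and 103 bases before the start.
Bbs7: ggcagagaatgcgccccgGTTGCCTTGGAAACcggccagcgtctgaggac
Mks1: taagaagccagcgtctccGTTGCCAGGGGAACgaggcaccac
Ift140: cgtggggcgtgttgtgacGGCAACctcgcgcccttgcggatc

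None of the 40 genes passed the test between mutant and control kidneys. All 40 reached the minimum of 1 FPKM in at least 3 libraries, so all were tested, and 0 were called at a limma adjusted p under 0.05, where 206 of all 13466 tested genes (1.53%) were called. At that background few calls would be met among 40 genes in any case. At an unadjusted p under 0.05 there were again 0 members by limma, against 13.7% of all tested genes, and for 0 members did the mutant libraries lie wholly on one side of the controls, against 14.5% of all tested genes (5.93% with the mutants higher and 8.61% with them lower). The unadjusted count was 4 with array weights (Ift80, Ift74, Rpgrip1l and Pkhd1) and 2 without mutant replicate 1 (Ift80 and Rpgrip1l). Those settings also raised the calls over all tested genes at a limma adjusted p under 0.05, from 206 to 1302 and 486. Shares of all tested genes at an unadjusted p are not given for them, so these 2 counts have no background here. The fold changes ran from -0.24 (Pkhd1) to 0.13 (Ift74 and B9d1), 24 above and 16 below 0, with a median of 0.02 beside -0.00 over all tested genes. In the authors' deposited table of a DESeq2 comparison 0 of the 40 had an adjusted p under 0.05, against 5.49% of the genes with a p there, and 1, Pkhd1, had an unadjusted p under 0.05, against 14.1%. With limma-voom on the recovered reads 0 were called and Pkhd1 alone had an unadjusted p under 0.05.

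A missed threshold does not show that levels were equal, so the intervals are given. The limma 95% interval lay within 0.58 in either direction on the log2 scale, or 1.5-fold of FPKM + 1, for 40 of the 40 genes. It lay within 0.32 for 30. In FPKM itself these bounds allow a larger fold, most of all for a scarce gene. The widest reach was that of Pkd1, down to -0.53. On the recovered reads, where low levels are not compressed, 38 of 40 intervals lay within 1.5-fold and 40 within 2-fold. The exceptions were Pkd1 (-0.62 to 0.28) and Pkhd1 (-0.88 to -0.06). Over all tested genes the share of intervals within 1.5-fold was 88.7% on the FPKM + 1 scale and 79.9% on the reads.

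**Figure D1:**
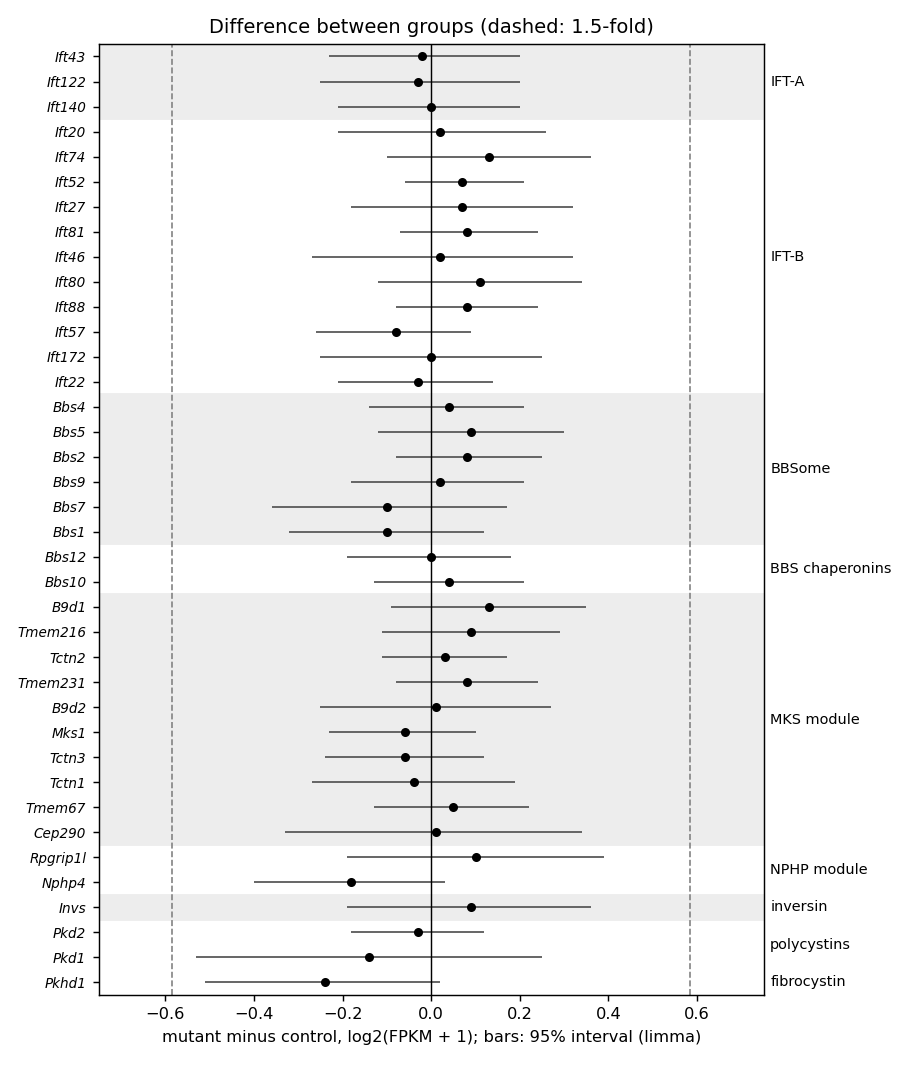
Difference between mutant and control kidneys for each of 38 genes (x axis, log2(FPKM + 1), mutant minus control). Bars are limma 95% intervals, and dashed lines mark 1.5-fold of FPKM + 1, which is a larger fold in FPKM for scarce genes. All 38 intervals cross 0 and lie inside the dashed lines, with Pkd1 and Pkhd1 reaching lowest.

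The intraflagellar transport genes included the most abundant gene of the 40, and none passed. Of 11 IFT-B genes 0 passed, 9 had a fold change above 0 and 2 below, with a median of 0.07, and of 3 IFT-A genes 0 passed and all 3 lay slightly below 0 (-0.03 to -0.00). Ift20, a small IFT-B subunit that also works at the Golgi, had the highest mean of all 40. It stood at 32.8, 34.9 and 43.2 FPKM in control kidneys, against 40.8, 38.5, 33.9 and 36.5 among the mutants, so that a control was the highest and a control the lowest library. Its log2 fold change was 0.02 (SE 0.10, limma adjusted p = 0.965). Ift74, a core IFT-B subunit that helps carry tubulin, had the smallest p of the IFT-B genes. It was at 19.2, 20.0 and 21.2 FPKM among controls, against 19.3, 25.0, 20.0 and 24.8 among mutants. Mutant replicates 2 and 4 lay above all controls and the other mutants among them (log2 fold change 0.13, SE 0.10, limma adjusted p = 0.682). It was 0.07 without mutant replicate 2 and 0.08 without mutant replicate 4.

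The remaining IFT-B genes had means of 7.69 to 17.3 FPKM, and the long-studied cystic kidney gene Ift88 was at 7.94 ± 0.13 (SD, n = 3) among controls, against 8.45 ± 0.57 (n = 4) among mutants. Ift27, a small GTPase that links IFT-B to the BBSome, and Ift172, a peripheral subunit, had fold changes of 0.07 and 0.00. Among the IFT-A genes, which serve return transport and membrane entry, Ift43 was the highest. It stood at 14.5, 15.1 and 18.8 FPKM in control kidneys, against 17.3, 15.8, 15.8 and 14.6 among the mutants, which overlapped fully. Ift122, a core subunit, was at 8.10, 6.90 and 8.58 among controls, against 6.99, 7.82, 8.81 and 7.17 among mutants. Neither differed beyond the spread (limma adjusted p = 0.978 and 0.960).

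**Figure D2:**
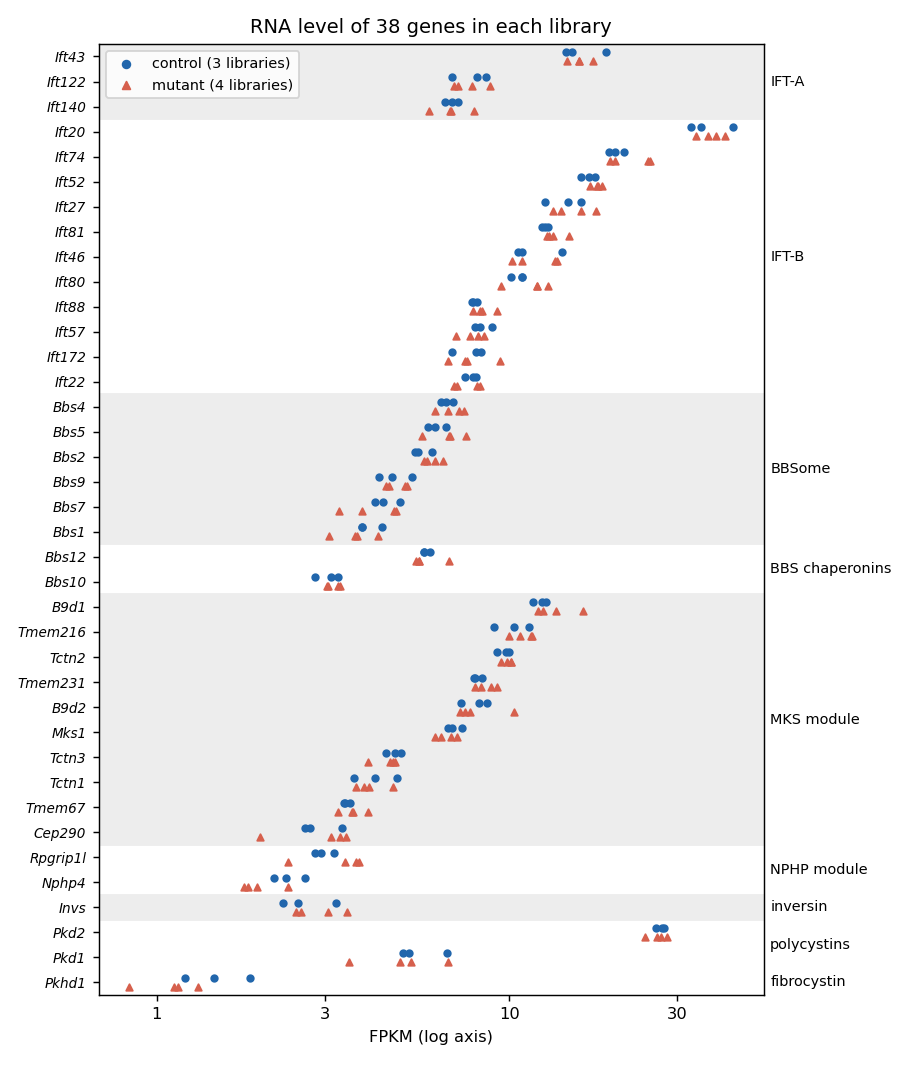
RNA level of each of 38 genes in every library (x axis, FPKM on a log axis), by complex, with circles for the 3 control and triangles for the 4 mutant libraries. For none of the 38 genes do the 2 groups lie wholly apart, from Pkhd1 near 1 FPKM to Ift20 near 37.2.

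The Bardet-Biedl genes were lower than the transport genes and did not lie apart between groups. The 6 BBSome genes had mean levels of 3.81 to 6.78 FPKM over the 7 libraries, and their fold changes ran from -0.10 (Bbs1 and Bbs7) to 0.09 (Bbs5), with a median of 0.03 and 0 called. Bbs4, a subunit that joins the coat to its carriers, was the highest, at 6.41, 6.62 and 6.93 FPKM among controls, against 6.16, 7.22, 6.69 and 7.43 among mutants, where replicate 1 lay under and replicates 2 and 4 above the controls. Bbs2, a core subunit, had the smallest p of the BBSome genes. It was at 5.39, 5.51 and 6.02 FPKM among controls, against 5.73, 6.14, 6.48 and 5.83 among mutants, with 2 mutants inside the range of the controls and 2 above it (log2 fold change 0.08, SE 0.07, limma adjusted p = 0.718). Bbs10 and Bbs12 encode chaperonin-like proteins that assemble the BBSome. Bbs10 was at 2.81, 3.26 and 3.13 FPKM among controls, against 3.05, 3.30, 3.07 and 3.27 among mutants. Bbs12 was at 5.95, 5.74 and 5.74 among controls, against 5.55, 5.45, 5.54 and 6.74 among mutants, of which replicate 4 lay above all other libraries.

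At the transition zone 13 genes were measured and none passed, with 8 fold changes above 0 and 5 below. The Meckel syndrome module, which forms the membrane gate, had 10 genes with a median of 0.02 and a range of -0.06 to 0.13. Its highest member and smallest p was B9d1, a lipid-binding gate protein, at 12.4, 11.7 and 12.7 FPKM among controls, against 16.2, 12.5, 13.6 and 12.1 among mutants, with replicates 1 and 3 above the controls and the other mutants among them (log2 fold change 0.13, SE 0.10, limma adjusted p = 0.675). Without mutant replicate 1 its fold change was 0.05. The tectonic gene Tctn2 had the smallest spread within groups of all 40 (SD 0.0480 on the log2 scale), at 9.68 ± 0.43 FPKM among controls, against 9.89 ± 0.30 among mutants. Cep290, a long scaffold protein that ties the gate to the microtubules, had a wide spread, at 3.36, 2.63 and 2.72 FPKM among controls, against 1.96, 3.32, 3.45 and 3.13 among mutants. Mutant replicate 1 was its lowest library.

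None of the 3 genes of the nephronophthisis module of the transition zone passed. Nphp4, a scaffold protein of the gate, was at 2.32, 2.15 and 2.63 among controls, against 1.77, 1.82, 2.35 and 1.93 among mutants. Mutant replicates 1, 2 and 4 lay under all controls and replicate 3 lay among them. The fold change of -0.18 (SE 0.10) had an exact permutation p of 0.114 over the 35 splits, two-sided, and a limma adjusted p of 0.476.

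Rpgrip1l, an anchor of the module, is also the neighbour of the Irx3 and Irx5 locus on the far side of Fto. It stood at 3.18, 2.93 and 2.82 FPKM in control kidneys, against 2.35, 3.43, 3.74 and 3.67 among the mutants. Mutant replicates 2, 3 and 4 lay above all controls and replicate 1 below them. The log2 fold change was 0.10 (SE 0.13, limma adjusted p = 0.843, exact permutation p = 0.571), and without mutant replicate 1 it was 0.22 (limma adjusted p = 0.158). Fto, which lies between, was at 10.3 ± 0.18 FPKM among controls, against 10.3 ± 0.33 among mutants.

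Invs encodes inversin, which marks a compartment just above the transition zone. It was at 2.52, 3.22 and 2.28 among controls, against 2.49, 3.07, 3.47 and 2.57 among mutants (limma adjusted p = 0.863). The 2 groups overlapped.

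None of the 3 polycystic kidney genes passed, and their fold changes lay below 0. Pkd1 encodes polycystin-1, a very large membrane receptor, and Pkd2 its channel partner, and mutations of either cause dominant polycystic disease. Pkd2 was the second most abundant of the 40 genes, at 27.4, 26.0 and 27.2 FPKM among controls, against 24.2, 28.0, 26.3 and 26.9 among mutants (log2 fold change -0.03, SE 0.07, limma adjusted p = 0.925). With 6191 to 10632 reads per library it had a narrow interval, -0.18 to 0.12. Pkd1 stood at 6.65, 5.19 and 4.99 among controls, against 3.50, 5.26, 6.68 and 4.91 among mutants, so that its lowest and its highest library were both mutant. Its within-group SD of 0.275 on the log2 scale was the widest of the 40, and its fold change, -0.14 on the log2 scale (SE 0.17, limma adjusted p = 0.841), became 0.00 without mutant replicate 1. Per length, Pkd2 was above Pkd1 in each of the 7 libraries.

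Pkhd1 encodes fibrocystin, the protein lost in recessive polycystic kidney disease, made in collecting duct and tubule cells. It was the least abundant member, at 1.84, 1.45 and 1.20 FPKM among controls, against 0.835, 1.31, 1.15 and 1.12 among mutants. Mutant replicates 1, 3 and 4 lay under all controls, and replicate 2 lay between control replicates 2 and 3. The log2 fold change was -0.24 (SE 0.12, limma adjusted p = 0.412, exact permutation p = 0.114). It was -0.47 with limma-voom on the reads (adjusted p = 0.272) and -0.44 (SE 0.19, adjusted p = 0.188) in the authors' deposited table. Without control replicate 1, its highest library, it was -0.15 (limma adjusted p = 0.803). Between 601 and 1719 reads per library lay behind these values. Beside Pkhd1 the 12 proximal tubule markers summed to 190.1 to 226.4 FPKM among controls, against 62.3 to 152.0 among mutants. Limma tested 11 of them and called 2 lower, and 6 of the 11 were called in the authors' deposited table. In 9 of the 11 every mutant library was under every control. Their log2 changes were negative for 10 and positive for 1 (median -0.89, range -1.50 to 0.28). The 10 loop and distal tubule markers, of which 9 were tested, 3 fell and 1 rose, summed to 113.0 to 117.7 and 104.6 to 113.2. Of those 9, 8 had a fold change below 0 and lay wholly under the controls (8.61% of all tested genes did). The median fold change of the 9 was -0.68. The 10 ureteric markers, with 0 called by limma and 5 in the authors' deposited table, summed to 237.3 to 256.4 and 244.0 to 304.0. Their fold changes ran from -0.83 to 0.47. In 4 of the 10 all mutants lay above all controls and in 2 all lay below (5.93% and 8.61% of all tested genes). None of these markers was at 0 in any library, and their part in the Pkhd1 values was not tested. In whole-kidney RNA, fewer cells of a type and less RNA per cell cannot be told apart.

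**Figure D3:**
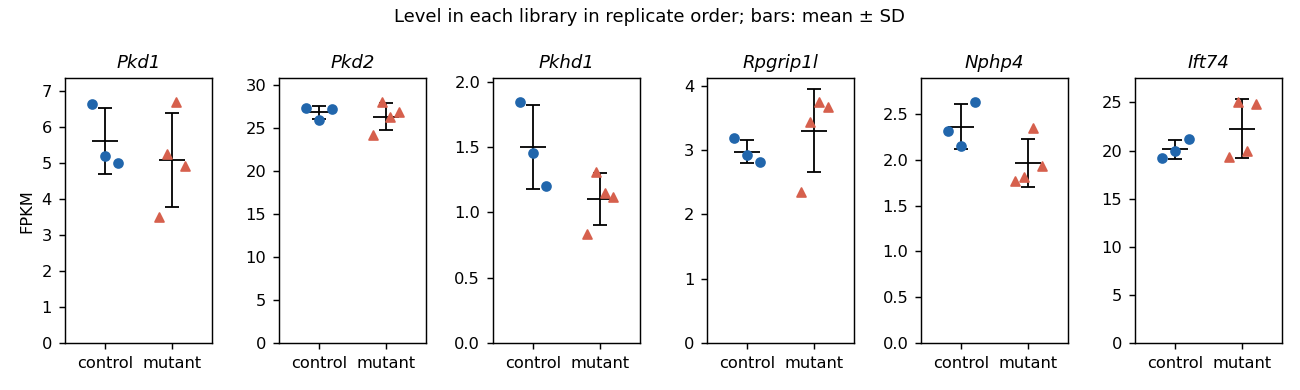
FPKM (y axis, from 0) of 6 genes in each library, in replicate order, with circles for controls and triangles for mutants and bars for the mean ± SD of 3 and 4 libraries. Mutant replicate 1, the leftmost triangle, is the lowest library for Pkd1 (3.50), Pkd2 (24.2), Pkhd1 (0.835), Rpgrip1l (2.35) and Nphp4 (1.77).

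The libraries differed among themselves in a way that followed gene length. The length that reads and FPKM imply ran from 1165 bases for Ift20 to 14850 for Pkd1, with a median of 3130 over the 40 genes. In mutant replicate 1 the deviation of each member from its mean over the 7 libraries had a Spearman correlation with length of -0.77 across the 40 genes, and of -0.64 across all 13466 tested genes. In control replicate 1 it was 0.75 and 0.34, and in mutant replicate 3 it was 0.60 and 0.36. The other 4 libraries lay between -0.26 and 0.13 over the members and between -0.19 and 0.24 over all tested genes. Genes of 1 library share its depth and preparation, so these values are descriptions.

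Of the 20 members longer than the median, 12 had their lowest level in mutant replicate 1. There the longer members stood a median of -0.15 from their means and the 20 shorter members 0.02. The long genes Pkd1, Cep290 and Rpgrip1l were low in that library and the short genes B9d1 and B9d2 (10.3 FPKM, against 7.24 to 8.62 elsewhere) were high. With the length trend of each library removed, an alternative chosen after seeing the data, 0 of 40 members were called, and the fold changes of Pkd1, Pkhd1 and Rpgrip1l were -0.08, -0.20 and 0.12. The part of RNA quality or preparation in this pattern was not tested.

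**Figure D4:**
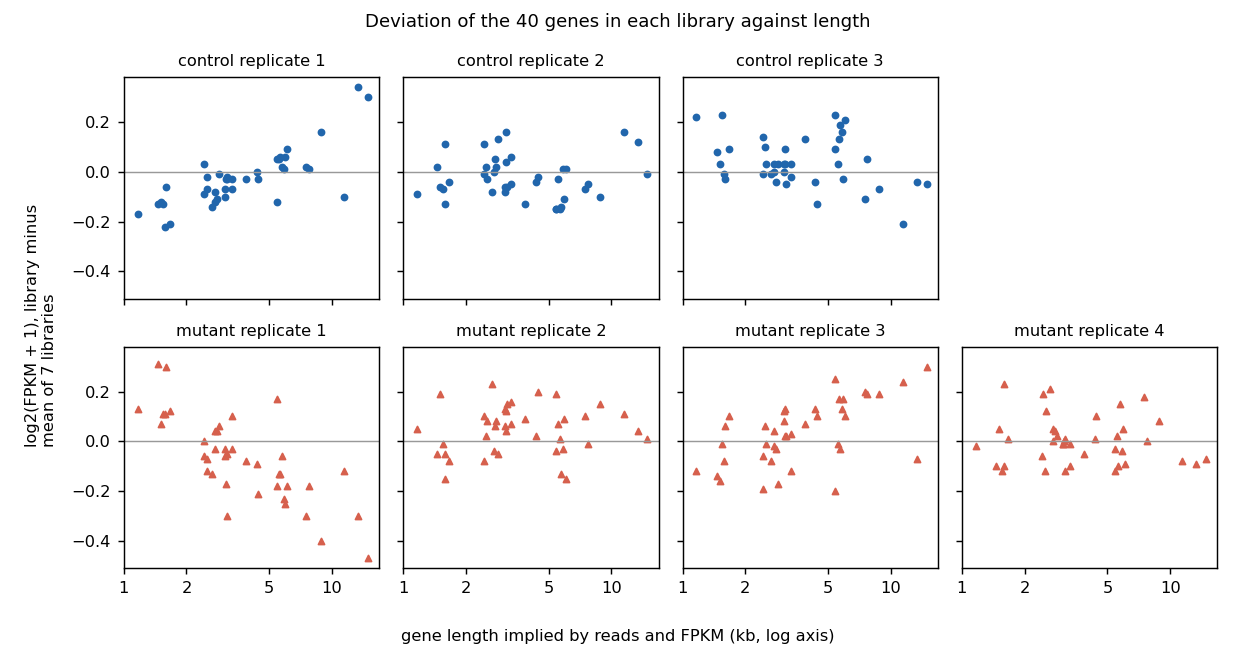
Deviation of each of the 40 genes from its mean over the 7 libraries (y axis, log2(FPKM + 1)) against the implied gene length (x axis, kb, log axis), a panel for each library. Points fall with length in mutant replicate 1 (Spearman -0.77) and rise with it in control replicate 1 (0.75) and mutant replicate 3 (0.60).

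Other genes linked to the cilium or to cystic kidney disease, from lists drawn up with earlier results of the series known, also gave no call. Of 132 tested genes in 7 lists limma called 0, with 9 (6.82%, against 13.7% of all tested genes) at an unadjusted p under 0.05. In 14 (10.6%, against 14.5%) the groups did not overlap. Median fold changes were 0.02 for 20 IFT and motor genes named outside the rule, 0.06 for 13 further BBS and chaperonin genes, -0.02 for 31 transition zone and basal body genes, 0.00 for 21 ciliary membrane and signalling genes and -0.04 for 30 further cystic disease genes. They were -0.07 for 10 ciliogenic transcription factors, 8 of them below 0, and -0.10 for 8 motile cilium genes, 6 of them below 0. In the IFT list the smallest p values belonged to the IFT-B gene Cluap1 (log2 fold change 0.16, SE 0.07) and the membrane cargo adaptor Tulp3 (-0.13, SE 0.06). In the next 2 lists they belonged to the BBS genes Trim32 (0.12, SE 0.06) and Ttc8 (0.11, SE 0.08) and the basal body genes Fuz (-0.16, SE 0.09) and Cep41 (-0.12, SE 0.08). Limma adjusted p for these 6 ran from 0.389 to 0.630.

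Unc119b and Gli1 had the smallest p of the ciliary membrane and signalling list. Gli1, a target gene and effector of Hedgehog signalling through the cilium, was at 10.7, 9.13 and 9.86 FPKM among controls, against 11.7, 12.0, 13.5 and 12.3 among mutants. All mutants lay above all controls (log2 fold change 0.30, SE 0.08, limma adjusted p = 0.101, exact permutation p = 0.0286, the smallest that 35 splits allow). In the authors' deposited table its adjusted p was 0.0181. The Hedgehog genes Ptch1, Gli2, Gli3 and Smo of the same list had fold changes of 0.08, 0.08, 0.09 and -0.14. Their limma adjusted p ran from 0.391 to 0.900. Gli1 is expressed in stroma, whose 8 markers summed to 432.1 to 614.4 FPKM among controls, against 552.3 to 728.1 among mutants, which overlapped. None was at 0. Of the 8 markers 2 were higher by limma, against 64 of all 13466 tested genes, and 2 had a fold change below 0. In 3 all mutants lay above all controls, against 5.93% of all tested genes. The part of these markers in the Gli1 values was not tested. Unc119b, a carrier of lipid-modified ciliary proteins, was at 29.0 ± 2.34 FPKM among controls, against 24.2 ± 1.05 among mutants (limma adjusted p = 0.136).

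Among the further cystic kidney genes Umod and Dcdc2a had the smallest p. Umod encodes uromodulin, the secreted protein of the thick ascending limb and the gene of a dominant tubulointerstitial disease. It was at 1.77, 2.21 and 1.41 FPKM among controls, against 1.12, 0.727, 0.472 and 0.853 among mutants, all mutants under all controls (log2 fold change -0.64, SE 0.14, limma adjusted p = 0.0714). Dcdc2a, a doublecortin family gene linked to nephronophthisis, was at 15.3, 14.2 and 15.7 FPKM among controls, against 12.6, 11.5, 9.38 and 11.8 among mutants, again apart (log2 fold change -0.39, SE 0.10, limma adjusted p = 0.0891). In the authors' deposited table both were lower (adjusted p = 0.00264 and 0.00800). Umod also belongs to the loop and distal marker list whose sums stand above. Without mutant replicate 1 limma called 486 of 13386 tested genes. Among these were 4 of the 132, Kif12, Umod and Dcdc2a lower and Alg8 higher.

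The list of ciliogenic transcription factors, drawn from the RFX family and the motile cilium programme, gave no call either. Whether each factor in it acts on ciliary genes in the kidney was not tested. Of the RFX factors, which bind the X-box, Rfx1, Rfx2, Rfx3, Rfx5 and Rfx7 had fold changes of -0.13, 0.05, -0.05, 0.02 and -0.09 (limma adjusted p from 0.728 to 0.963). E2f5 had the smallest p of the list (18.9 ± 1.04 and 16.5 ± 1.54 FPKM, limma adjusted p = 0.342). Foxj1, the master regulator of motile cilia, was at 2.22 ± 0.063 FPKM among controls, against 1.88 ± 0.40 among mutants (limma adjusted p = 0.606). Of 32 genes of the motile cilium 20 were found in the table and 8 passed the minimum level, so the 40 genes were measured in tissue with little RNA of the motile apparatus. The tektin genes Tekt2 and Tekt1 had the smallest p of those 8 (log2 fold change 0.36, SE 0.13, and -0.22, SE 0.11, limma adjusted p = 0.226 and 0.441).

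**Figure D5:**
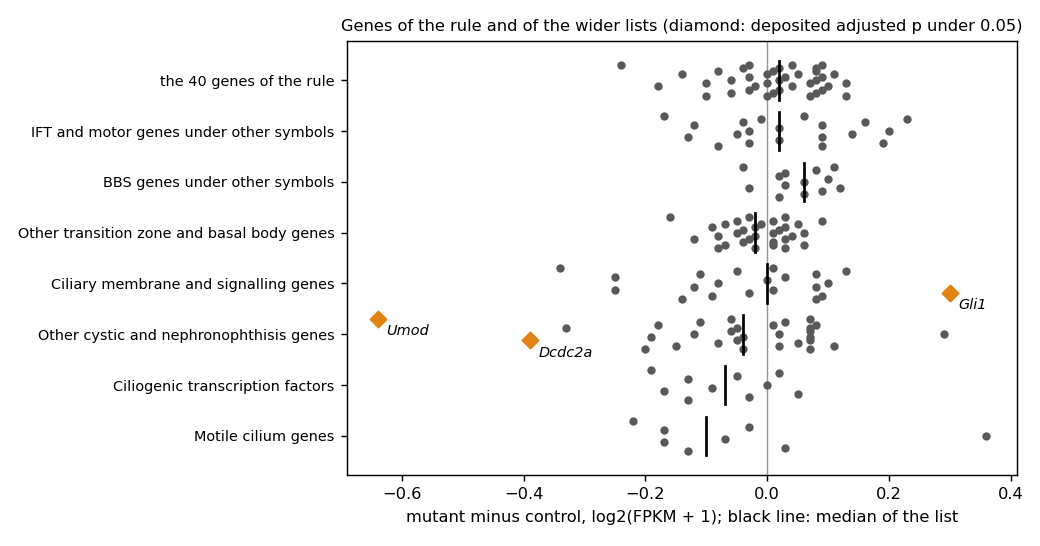
Fold changes (x axis, mutant minus control, log2(FPKM + 1)) of 38 of the 40 genes (top row) and of the 7 wider lists. Each gene is a point, and a black line marks the median of the genes drawn in a row. Diamonds mark Gli1, Umod and Dcdc2a, which have an adjusted p under 0.05 in the authors' deposited table. The 38 genes of the top row lie between -0.24 and 0.13.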

How the data were processed

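The authors deposited a single table with FPKM per library and, per the file headers, the columns of a DESeq2 comparison: a mean normalized signal (baseMean), log2 fold changes with errors, a test score (stat) and p-values. The submitters' processing notes name STAR 2.6.0c and HTSeq 0.6.1p2, with trimming by Trim Galore 0.5.0 and read checks by FastQC 0.11.5, on GRCm39; the strand setting and the gene lengths are not given in the sources used here. Reads were recovered from FPKM and the mean signal (100% of values within 0.05 of a whole number). Groups came from the sample titles.

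Genes with at least 1 FPKM in at least 3 libraries (13466; 2701 left out) were compared on log2(FPKM + 1) by limma 3.58.1 under R 4.3.3, trended and robust, two-sided, with Benjamini-Hochberg adjustment over all tested genes. The fit was also run on simulated counts with the same spread for every gene and no length trend between libraries, unlike these data. Its outcome is not used here. Named members were Pkd1, Pkd2, Pkhd1, Rpgrip1l and, in each complex, the most abundant gene and the one with the smallest p (15 reported); Ift88, Ift27, Ift172, Tctn2, Cep290 and B9d2 were added after their values were seen, as were Fto, Kif12 and Alg8. In each wider list the 2 genes with the smallest p were named, since none was called. The RFX genes and Ptch1, Gli2, Gli3 and Smo were added afterwards. Promoter windows were RefSeq's on GRCm38.p6, used for their letters only, and the spellings were chosen after looking. Some members are counted but not reported here. Members and lists were chosen with earlier results of these data known. Alternatives were another pseudocount, filters, normalizations, weights, a replicate block, a globin covariate, limma-voom, the deposited p-values and leaving out each library. Python 3.11.15, pandas 2.3.3 and matplotlib 3.10.9 were used.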

Additional observations from a re-analysis of the deposited data

Results flagged for a closer look

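In 2 of the 40 genes 1 mutant library stood far from the other 3 (gap over range of 0.834 and 0.924). About 1 of 20 such groups is set apart this way by chance, and 40 were looked at. B9d2, a gate protein of the transition zone, was at 10.3 FPKM in mutant replicate 1 and at 7.24 to 7.75 in the other mutants. Bbs12, a chaperonin-like gene, was at 6.74 FPKM in mutant replicate 4 and at 5.45 to 5.55 in the others.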

How the results depend on the processing

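Under all 19 alternatives 0 of the 40 genes (28 with a minimum of 5 FPKM) were called; their lowest adjusted p was 0.0667, for Ift74 with array weights. At an unadjusted p under 0.05 their count, 0 at first, was 4 with array weights and 2 without mutant replicate 1. It was 1 with the globin covariate, limma-voom or the deposited columns, or without control replicate 3, mutant replicate 2 or mutant replicate 3. Shares over all tested genes at that threshold are given above for the first fit and the deposited columns only. The 206 calls over all tested genes became 109 with a pseudocount of 0.1, 60 with a minimum of 5 FPKM, 1302 with array weights, 2 with the replicate number as a block, 422 with the length trend removed, 886 in the deposited columns and 11 to 486 on leaving out a library (fewest without control replicate 2, most without mutant replicate 1). Calls in the wider lists, 0 at first, came to 8 with array weights, 1 with the globin ratio as covariate, 1 with the length trend removed, 3 in the deposited columns and 0 to 4 on leaving out a library. The labels link same-numbered libraries of both groups by a number only, and the replicate block left 0 members called. Correlations of their deviations were -0.16, 0.03 and 0.10, against -0.25 to 0.14 for the other pairs. With so few libraries these values cannot show whether such libraries were prepared together. Of the 15 named members 7 kept the sign of their fold change throughout. The others, none of them called, changed sign close to 0. Bbs12 was at 0.04 with quantile normalization, 0.09 with array weights, 0.00 with the globin covariate and 0.00 in the deposited columns. Ift122 was at 0.01, 0.02 and 0.00 with quantile normalization, array weights and the replicate block. Ift43 was at 0.01, 0.02 and 0.00 with quantile normalization, the replicate block and limma-voom. With array weights Invs was at -0.05 and Pkd2 at 0.02. On leaving out a library Bbs10 ran from -0.01 to 0.07, Bbs12 from -0.06 to 0.02, Ift122 from -0.11 to 0.03, Ift20 from -0.05 to 0.14, Ift43 from -0.08 to 0.09, Pkd1 from -0.26 to 0.00 and Pkd2 from -0.06 to 0.01. The causes were not tested. At 353 to 538 reads per library, the fewest of any member, Bbs10 had an interval of -0.13 to 0.21.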
